A study of Homo sapiens with 24 samples.

Results

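Sterol and fatty acid synthesis was followed through 30 genes, 21 of the sterol pathway and 9 of the fatty acid pathway, taken as a list of symbols, out of 28278 genes counted. All 30 were among the 15642 genes with enough counts to be tested. RNA came from TYUC-1, a human line from a neuroendocrine carcinoma of the esophagus that grows in suspension. One derived line carried a doxycycline-inducible TAp63 (i-TAp63) and the other an inducible ΔNp63 (i-DNp63), 2 isoforms of the squamous transcription factor TP63. Each line was sampled after 0, 1, 3 and 6 days of doxycycline at 1 µg/ml within a 6-day course, with DMSO for the remaining days, and each of these 8 groups had 3 libraries. The replicates are described as biological, but not how their cultures were separated; a p-value here therefore reflects library-to-library spread, which may be technical. A treatment label also names EPZ-6438, an EZH2 inhibitor, for the same number of days. The labels do not settle whether it was present, and if it was, its effect and that of induction cannot be told apart. Cells given doxycycline but carrying no construct were not analysed here.

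Cholesterol is built from acetyl-CoA through mevalonate, the isoprenoids, squalene and lanosterol, and fatty acids are built from the same precursor by ATP citrate lyase, acetyl-CoA carboxylase and fatty acid synthase. The transcription factors SREBP-2 and SREBP-1, encoded by SREBF2 and SREBF1, are released from the endoplasmic reticulum when membrane sterol is low and switch these genes on together. INSIG proteins hold them back when sterol is plentiful, and the liver X receptors respond to oxysterols by raising cholesterol export.

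Depth was lowest in replicate 3 of ΔNp63 day 1, at 1530847 counts, and lay between 6375963 and 22019974 counts in the other 23 libraries. TP63 was at 326 to 1033 CPM (counts scaled to a common library size) in 17 induced libraries, 69.2 CPM in replicate 3 of ΔNp63 day 1, and 2.90 to 4.94 CPM in the 6 libraries of day 0. That shallow library also stood apart in its markers: 8 erythroid genes summed to 3953 CPM there and to 1.59 to 76.6 CPM in the other 23 libraries. Among the members it lay below the range of the other 23 libraries for 12, above it for 4 and inside it for 14. Calls that rest on it are therefore also given without it. Some sign and overlap counts that use ΔNp63 day 1 are given only with it. The same holds for some SE and p-values, among them those of HMGCS1 and SREBF2. Of the neuroendocrine markers, ENO2 (452 to 601 CPM) and UCHL1 (78.6 to 140 CPM) were present in the other 23 libraries, whereas CHGA stayed at or below 1.11 CPM, INSM1 at or below 0.779 CPM and SCG2 at or below 0.263 CPM. POU2F3, a tuft cell factor, was at 123 to 244 CPM in those libraries and SOX9 at 212 to 359 CPM. These 2 had the highest medians among the tuft cell markers and weigh most in their sum. TRPM5 was at 0.787 to 2.39 CPM and CHAT at or below 0.0926 CPM. The sum of 8 tuft cell markers was lower in induced libraries, at 642 to 687 CPM on TAp63 day 6 against 758 to 797 CPM on TAp63 day 0, and at 529 to 590 CPM on ΔNp63 day 6 against 725 to 758 CPM on ΔNp63 day 0. The sum of 5 squamous markers was higher at days 3 and 6; at day 1 it was 14.2 to 16.2 CPM in TAp63 cells, below their day 0, and 7.98 to 27.5 CPM in ΔNp63 cells, overlapping with theirs. It was 36.6 to 46.5 CPM on TAp63 day 3 and 70.3 to 94.0 CPM on ΔNp63 day 3. On the last day it was at 46.8 to 52.2 CPM on TAp63 day 6 against 16.9 to 18.8 CPM on TAp63 day 0, and at 99.7 to 148 CPM on ΔNp63 day 6 against 14.7 to 17.8 CPM on ΔNp63 day 0. KRT13 had the highest median of the 5, at 6.93 to 110 CPM outside the shallow library, where KRT14 stayed at or below 0.257 CPM. The part of these shifts in the changes below was not tested. In bulk RNA, fewer cells of a type and less RNA per cell cannot be told apart.

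Promoter sequence was examined because the members are known to share their regulators. RefSeq promoters (GRCh38.p14), 300 bases from 250 before to 50 after the start, matched 26 of the 30 members, taking the first listed start of each gene; FDFT1, SQLE, ACAT2 and FASN had no entry used here. CCAAT, the box bound by NF-Y, which works beside SREBP, was found on either strand in 18 of the 26 members (69.2%) and in 35.7% of 27305 gene promoters. GGGCGG, the core of an SP1 site, was found in 24 members (92.3%) and in 44.6% of all promoters. TCACNCCAC, a form of the sterol regulatory element bound by SREBP, was found in 1 member, SREBF2 (3.85%), and in 1.15% of all promoters. CACGTG, an E-box that SREBP-1 can also bind, was found in LSS, SC5D and INSIG1 (11.5%) and in 7.43% of all promoters. The 27305 promoters include those of genes with too few counts to be tested, whereas all members were tested. The shares were not matched for expression, so a gap between them cannot be read as a feature of the pathway. The 4 promoters below belong to members given by library further down: TM7SF2 on the plus strand at chr11:65111622-65111921, LSS on the minus strand at chr21:46228725-46229024, INSIG1 on the plus strand at chr7:155297628-155297927 and ACSL3 on the plus strand at chr2:222860786-222861085. Capitals mark CCAAT or its complement ATTGG, 1 box in each; a match is a description of the letters and not a measured site.
TM7SF2: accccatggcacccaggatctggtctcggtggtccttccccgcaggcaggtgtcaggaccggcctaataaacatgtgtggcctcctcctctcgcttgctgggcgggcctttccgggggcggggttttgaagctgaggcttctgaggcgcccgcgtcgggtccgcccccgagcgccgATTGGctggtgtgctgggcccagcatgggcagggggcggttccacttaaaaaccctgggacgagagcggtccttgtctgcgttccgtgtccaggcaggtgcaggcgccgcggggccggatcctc
LSS: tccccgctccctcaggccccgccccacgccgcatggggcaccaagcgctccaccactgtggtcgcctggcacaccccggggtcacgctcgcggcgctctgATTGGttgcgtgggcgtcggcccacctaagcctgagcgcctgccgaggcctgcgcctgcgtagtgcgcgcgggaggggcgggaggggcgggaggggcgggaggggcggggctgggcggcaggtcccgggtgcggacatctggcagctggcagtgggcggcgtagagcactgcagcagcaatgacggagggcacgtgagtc
INSIG1: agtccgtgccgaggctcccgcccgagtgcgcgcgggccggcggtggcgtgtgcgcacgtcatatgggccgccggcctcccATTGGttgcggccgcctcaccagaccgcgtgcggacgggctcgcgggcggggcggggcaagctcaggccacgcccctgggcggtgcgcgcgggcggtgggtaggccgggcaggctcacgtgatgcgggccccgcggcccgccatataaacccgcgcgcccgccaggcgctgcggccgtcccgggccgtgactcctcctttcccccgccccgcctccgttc
ACSL3: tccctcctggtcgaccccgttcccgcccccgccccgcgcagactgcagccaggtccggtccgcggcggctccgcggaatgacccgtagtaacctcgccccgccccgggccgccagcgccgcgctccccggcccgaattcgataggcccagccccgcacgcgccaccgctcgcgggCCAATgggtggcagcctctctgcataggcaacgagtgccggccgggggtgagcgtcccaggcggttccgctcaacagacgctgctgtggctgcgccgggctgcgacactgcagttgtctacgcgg

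The pathway as a whole changed little. Over the 23 deeper libraries, the highest CPM of a member was between 1.34 times its lowest (SREBF2) and 2.21 times its lowest (TM7SF2). In edgeR's quasi-likelihood test over all 24 libraries, with Benjamini-Hochberg adjustment over 15642 genes, 0 of 30 members passed an adjusted p of 0.05 against day 0 in TAp63 cells at day 1, when 0.121% of all genes tested were called. The count was also 0 at TAp63 day 3 (0.435% of all genes) and TAp63 day 6 (0.441%), and at ΔNp63 day 1 (0.0959%), ΔNp63 day 3 (2.2%) and ΔNp63 day 6 (2.03%). DESeq2 called 0 members at TAp63 days 1, 3 and 6 (0.185%, 0.729% and 0.646% of all genes) and at ΔNp63 day 1 (3.21%), 2 at ΔNp63 day 3 (3.66% of all genes) and 1 at ΔNp63 day 6 (3.11%). At an unadjusted p under 0.05, edgeR placed 1 member lower (0.869% of all genes) and 0 higher (1.11%) at TAp63 day 1, 1 lower (1.46%) and 1 higher (3.22%) at TAp63 day 3, and 1 lower (0.793%) and 0 higher (3.3%) at TAp63 day 6. In ΔNp63 cells it placed 6 lower (2.93%) and 1 higher (9.22%) at day 1, 3 lower (4.54%) and 2 higher (7.77%) at day 3, and 1 lower (3.38%) and 4 higher (5.95%) at day 6. The intervals bound these changes: in each of the 6 comparisons the 95% interval lay within a 2-fold change for 29 of the 30 members, the exception being FADS1, whose level in the shallow library is given below.

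The sign of the estimates leaned down at days 1, 3 and 6 in TAp63 cells, and mainly at day 1 in ΔNp63 cells. Log2 changes were below 0 for 23, 24 and 23 of 30 members at TAp63 days 1, 3 and 6, where 49.6%, 51.4% and 53.4% of all genes tested were below 0. In ΔNp63 cells they were below 0 for 24, 17 and 12 members at days 1, 3 and 6, where 48.7%, 52.2% and 51.3% of all genes were. The median log2 change of the 21 sterol genes was -0.10, -0.13 and -0.09 at TAp63 days 1, 3 and 6, and -0.19, -0.07 and 0.05 at ΔNp63 days 1, 3 and 6. The median of the 9 fatty acid genes was -0.06, -0.04 and -0.01 at TAp63 days 1, 3 and 6, and -0.07, -0.09 and 0.09 at ΔNp63 days 1, 3 and 6. Without replicate 3 of ΔNp63 day 1, the medians at ΔNp63 day 1 were -0.125 for sterol and -0.074 for fatty acid genes. The signs of the fatty acid medians at TAp63 days 1, 3 and 6 and ΔNp63 day 6, and of the sterol medians at ΔNp63 days 3 and 6, each turned when some single library was left out. Over all genes tested, the median ranged between -0.014 and 0.01. At day 6 of both lines, 12 members were below 0 in each, 7 were above 0 in each, and 11 were below 0 in TAp63 and above 0 in ΔNp63 cells. The shares of all genes with these pairs of signs were not computed, so this split has no background to be read against. For the difference between the lines' responses at day 6, edgeR over all libraries called 0 members (0.0831% of all genes).

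Added up, the 21 sterol genes took 3925, 3784 and 3667 CPM in the 3 TAp63 libraries of day 0, 3647, 3302 and 3319 at day 1, 3364, 3468 and 3454 at day 3, and 3338, 3536 and 3528 at day 6. All 9 induced TAp63 libraries were thus below all 3 of day 0. In ΔNp63 cells the sum was 3795, 3887 and 3713 CPM at day 0, 3334, 3497 and 2321 at day 1, 3460, 3581 and 3508 at day 3, and 3552, 3706 and 4012 at day 6. The libraries of days 1 and 3 were below all of day 0, also without replicate 3 of day 1, and those of day 6 overlapped with day 0. HMGCS1, SREBF2 and the other highly counted genes weigh most in such a sum. The fatty acid sum overlapped between day 6 and day 0 in both lines, at 2701 to 2885 CPM on TAp63 day 6 against 2621 to 2994 on TAp63 day 0, and at 2864 to 3323 CPM on ΔNp63 day 6 against 2776 to 3162 on ΔNp63 day 0.

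**Figure D1:**
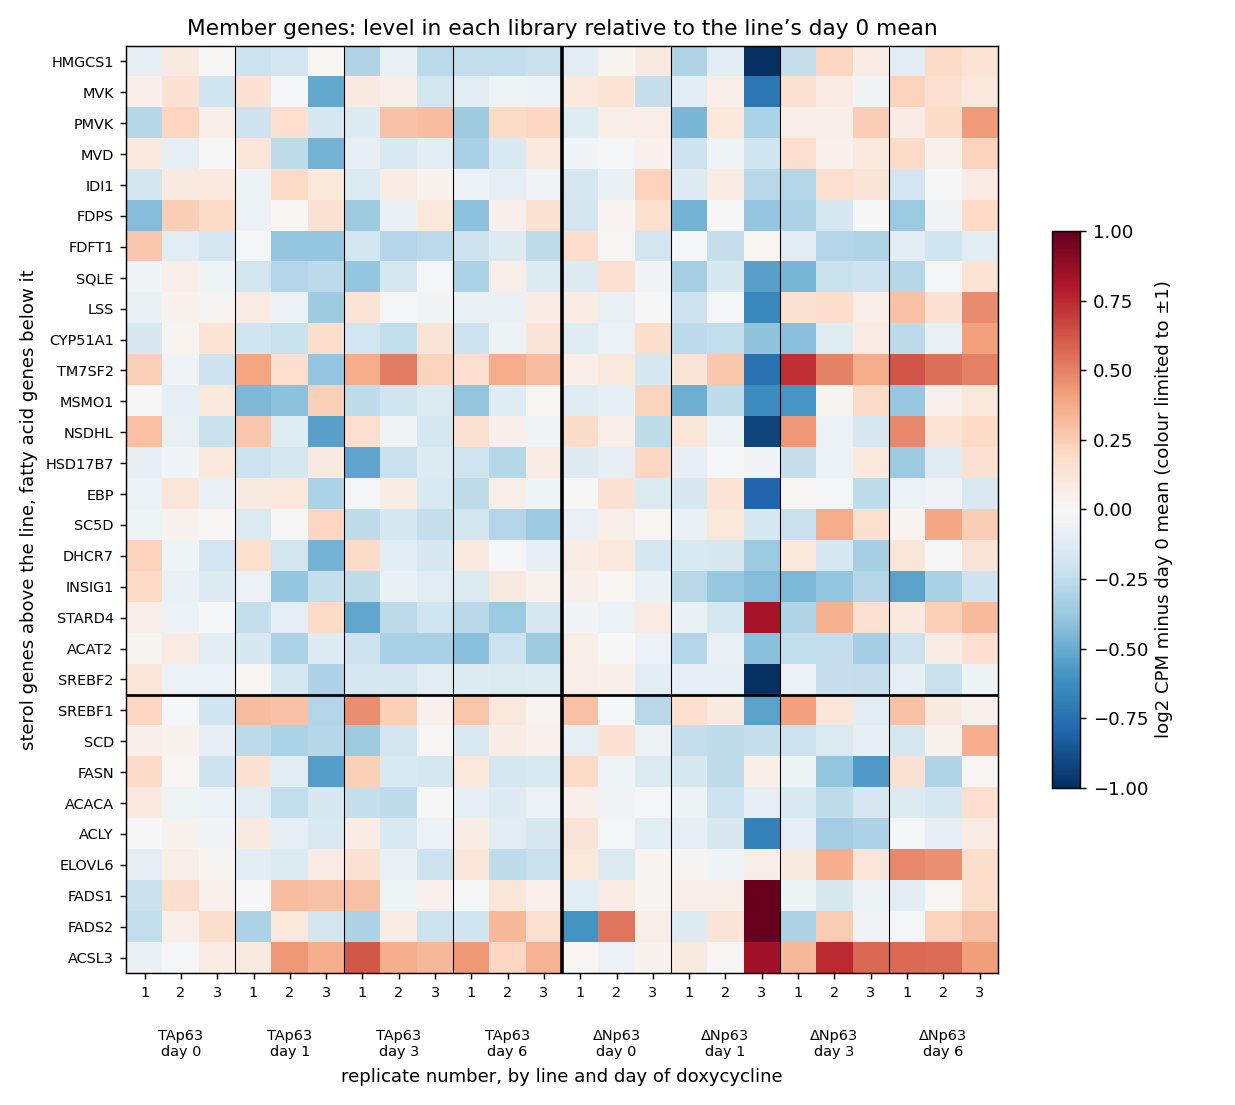
Level of each of the 30 members (rows) in each of the 24 libraries (columns), as log2 CPM minus the mean of the line's 3 day 0 libraries, with colours limited to 1 in either direction; TAp63 libraries are left of the thick line and ΔNp63 libraries right of it. TM7SF2 and ACSL3 are red at days 3 and 6 of both lines, INSIG1 is blue throughout the induced ΔNp63 libraries, and replicate 3 of ΔNp63 day 1 differs from its neighbours, with 12 members below and 4 above the range of the other 23 libraries.

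Same-numbered libraries deviated together in groups other than ΔNp63 day 1, so a fit with replicate number as a block is given beside results it changes. With the block and all libraries, edgeR called 3 members at ΔNp63 day 3, where 6.89% of all genes were called, and 1 at ΔNp63 day 6 (4.56%). With the block and without replicate 3 of ΔNp63 day 1, it called 8 of 30 members (26.7%) at ΔNp63 day 3, where 23.5% of all genes were called, and 6 (20%) at ΔNp63 day 6, where 14.1% were. In that fit 2 members (6.67%) were called at TAp63 day 3, where 4.57% of all genes were, and 1 (3.33%) at TAp63 day 6, where 3.6% were. These shares lie near the background of all genes, so the calls of this fit do not set the members apart from other genes. The fit serves here only to name the members it called. At TAp63 day 1 it called 0 members (0.887% of all genes), and at ΔNp63 day 1 also 0 (0.849% of all genes). At an unadjusted p under 0.05 it placed 1 higher and 7 lower at TAp63 day 1, and 0 higher and 7 lower at ΔNp63 day 1. The share of all genes at that threshold was not computed for this fit, so these counts have no background to be read against. All 30 intervals lay within a 2-fold change in each comparison with day 0 in that fit.

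In the mevalonate branch the values stayed close to day 0. HMGCS1, which condenses acetyl units to HMG-CoA, lay at 521 to 745 CPM in the 23 deeper libraries, and its groups did not overlap at TAp63 day 6, with all 3 libraries below day 0 (log2 change -0.24 ± 0.19, SE; adjusted p = 1 in edgeR). MVK, PMVK, MVD, IDI1 and FDPS, which carry mevalonate to farnesyl pyrophosphate, were called in none of the comparisons with day 0 in edgeR with or without the block, or in DESeq2; FDPS also has processed pseudogenes that could share its reads. ACAT2, a cytosolic thiolase at the head of the pathway, had 120, 124 and 109 CPM in TAp63 libraries at day 0, 105, 94.6 and 108 at day 1, 102, 93.9 and 93.7 at day 3, and 88.0, 101 and 92.1 at day 6. All 9 induced TAp63 libraries were below all 3 of day 0. Its log2 change at TAp63 day 6 was -0.33 ± 0.11 (SE; adjusted p = 0.591 in edgeR), and with the block and without the shallow library it was called (-0.33, adjusted p = 0.0303). In ΔNp63 cells ACAT2 had 118, 114 and 109 CPM at day 0, 95.7, 96.5 and 89.9 at day 3, and 97.9, 120 and 127 at day 6; the day 3 libraries were below day 0 and those of day 6 overlapped with it. ACAT2 (chr6:159762045-159779112, hg38, plus strand) overlaps TCP1 and SOD2 in the annotation, which makes its count uncertain.

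**Figure D2:**
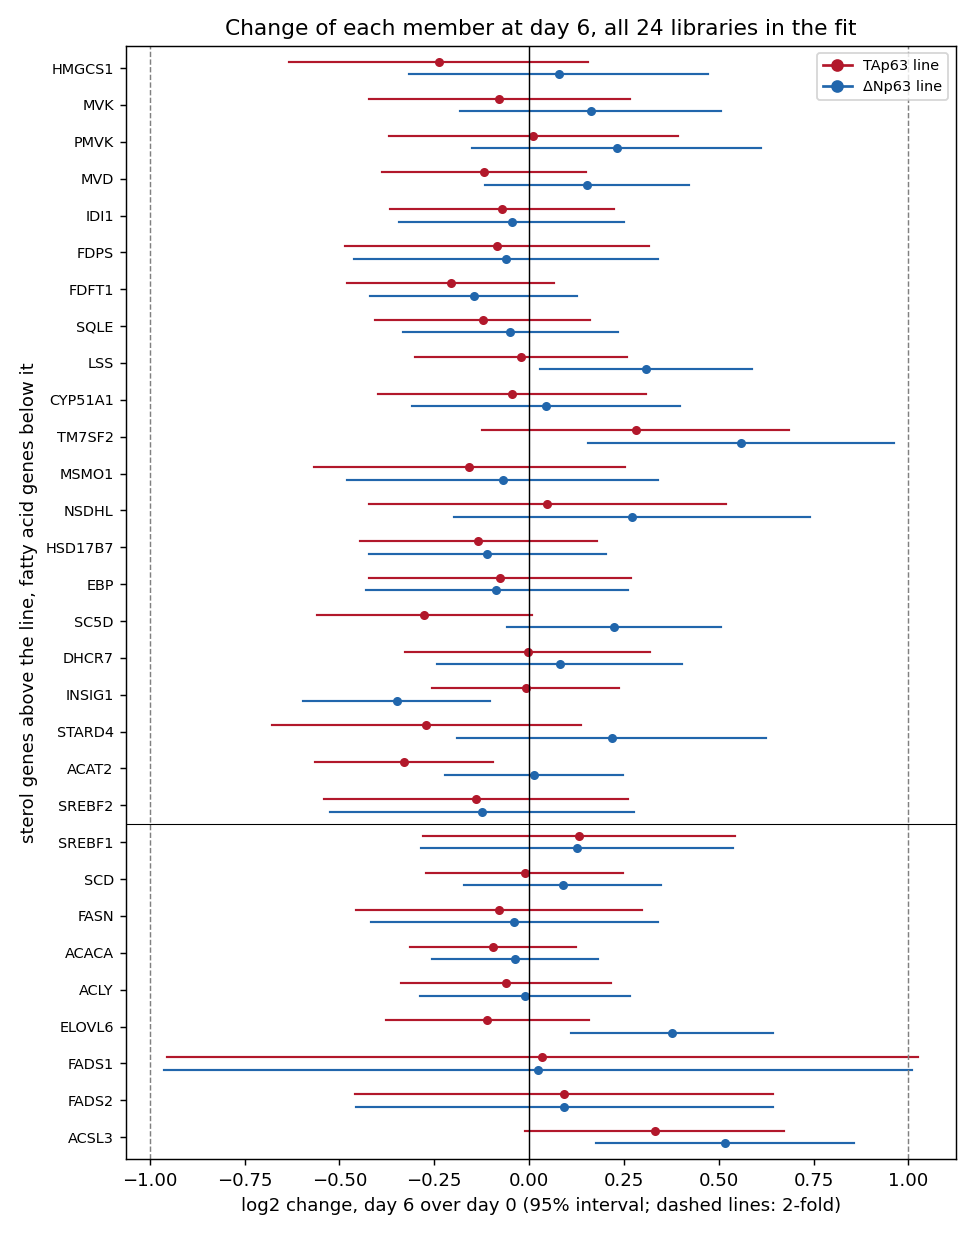
Log2 change of each member at day 6 over day 0 with its 95% interval, from the edgeR fit of all 24 libraries, with the TAp63 line (red) above the ΔNp63 line (blue) for each gene and dashed lines at a 2-fold change. All intervals but those of FADS1 lie between the dashed lines, and the largest changes are those of TM7SF2 (0.56) and ACSL3 (0.52) in ΔNp63 cells.

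From squalene onward, TM7SF2 moved furthest against day 0, and LSS was called between days 1 and 6 of ΔNp63 induction. FDFT1 and SQLE, which make squalene and its epoxide, were called lower at ΔNp63 day 3 with the block and without the shallow library, at log2 changes of -0.24 (adjusted p = 0.0299) and -0.30 (adjusted p = 0.0108); over all libraries their adjusted p was 0.519 and 0.372. At ΔNp63 day 6 they were back near day 0, at -0.14 for FDFT1 and -0.05 for SQLE in the blocked fit. LSS, the cyclase that forms lanosterol (chr21:46188446-46228824, hg38, minus strand), had 122, 131 and 130 CPM in TAp63 libraries at day 0, 135, 122 and 99.8 at day 1, 140, 126 and 125 at day 3, and 121, 122 and 134 at day 6. In ΔNp63 libraries it had 136, 123 and 128 CPM at day 0, 112, 128 and 82.5 at day 1, 143, 145 and 135 at day 3, and 158, 143 and 179 at day 6. The TAp63 groups overlapped throughout, and the 3 ΔNp63 libraries of day 6 were above all those of days 0 and 1. LSS rose between days 1 and 6 of ΔNp63 induction, by 0.55 ± 0.14 on the log2 scale (SE; adjusted p = 0.0354 in edgeR), the 1 member called in that comparison, where 2.59% of all genes were called. The call rests on single libraries: the change was 0.41 (adjusted p = 0.0932) without replicate 3 of day 1, 0.57 (adjusted p = 0.096) without replicate 1 of day 6 and 0.47 (adjusted p = 0.163) without replicate 3 of day 6. Against day 0, LSS at ΔNp63 day 6 changed by 0.31 ± 0.13 (SE; adjusted p = 0.436), and by 0.30 (adjusted p = 0.0256) with the block and without the shallow library.

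TM7SF2, a C14 sterol reductase (chr11:65111854-65116408, hg38, plus strand), had 47.0, 38.8 and 34.4 CPM in TAp63 libraries at day 0, 52.1, 44.7 and 30.3 at day 1, 51.5, 56.6 and 46.5 at day 3, and 44.6, 51.5 and 49.3 at day 6. In ΔNp63 libraries it had 42.1, 43.4 and 35.6 CPM at day 0, 44.0, 48.6 and 23.9 at day 1, 66.9, 56.9 and 52.1 at day 3, and 62.3, 59.0 and 57.2 at day 6. All 6 ΔNp63 libraries of days 3 and 6 were above day 0, while in TAp63 cells the later days overlapped with day 0. Over all libraries the log2 change was 0.54 ± 0.19 at ΔNp63 day 3 (SE; adjusted p = 0.202 in edgeR) and 0.56 ± 0.19 at ΔNp63 day 6 (adjusted p = 0.205). Without the shallow library, and with no block, both were called (0.54, adjusted p = 0.0421, and 0.56, adjusted p = 0.0407), and with the block added the adjusted p was 0.000574 and 0.00062. TAp63 day 3 gave 0.37 ± 0.20 (SE; adjusted p = 1) and was called in that blocked fit (0.39, adjusted p = 0.039); TAp63 day 6 was not (0.30, adjusted p = 0.149). The difference between the lines' responses at day 6, TAp63 minus ΔNp63, was -0.28 with a 95% interval of -0.85 to 0.29, an interval that includes 0. TM7SF2 overlaps VPS51 and ZNHIT2 in the annotation, and its count is uncertain for that reason.

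The later enzymes were quieter. CYP51A1, MSMO1, HSD17B7, EBP and SC5D, which trim, isomerise and desaturate the ring, were likewise called in none of the comparisons with day 0 in those fits; HSD17B7 has a near-identical pseudogene, which makes its count uncertain. NSDHL, a C4 decarboxylating dehydrogenase, was called higher at ΔNp63 day 6 with the block and without the shallow library (0.27, adjusted p = 0.0453), against an adjusted p of 0.959 over all libraries. DHCR7, which completes cholesterol, was not called against day 0 at any time. SC5D pointed opposite ways at day 6, with a log2 change of -0.28 ± 0.14 in TAp63 and 0.22 ± 0.14 in ΔNp63 cells (SE; adjusted p = 1 and 0.748 in edgeR), and all 3 TAp63 libraries of day 6 were below day 0.

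Among the sensors, INSIG1 was lower in ΔNp63 cells at every induced day. INSIG1 (chr7:155297772-155310235, hg38, plus strand), the SREBP-retaining protein and itself an SREBP target, was chosen for values in full after they were seen. In TAp63 libraries it had 273, 227 and 217 CPM at day 0, 228, 182 and 202 at day 1, 199, 227 and 221 at day 3, and 215, 254 and 243 at day 6. The ΔNp63 libraries had 254, 249 and 234 CPM at day 0, 203, 189 and 182 at day 1, 180, 187 and 202 at day 3, and 170, 196 and 213 at day 6. All 9 induced ΔNp63 libraries were below all 3 of day 0, and the TAp63 libraries of day 6 overlapped with day 0. The log2 changes were -0.36 ± 0.12, -0.38 ± 0.12 and -0.35 ± 0.12 at ΔNp63 days 1, 3 and 6 (SE; adjusted p = 0.184, 0.125 and 0.189 in edgeR over all libraries). DESeq2 called days 3 (adjusted p = 0.0264) and 6 (adjusted p = 0.0494), and edgeR called both with the block and without the shallow library (adjusted p = 0.00488 and 0.0127). In TAp63 cells the log2 change of INSIG1 was -0.23, -0.15 and -0.01 at days 1, 3 and 6, with an adjusted p of 1 each. The difference between the lines at day 6, TAp63 minus ΔNp63, was 0.34 with a 95% interval of -0.01 to 0.69 (adjusted p = 1). SREBF2, the regulator of the sterol genes, was between 831 and 1114 CPM in the 23 deeper libraries, with log2 changes at day 6 of -0.14 ± 0.19 in TAp63 and -0.12 ± 0.19 in ΔNp63 cells (SE; adjusted p = 1 each in edgeR). STARD4, a cytosolic sterol carrier, was at 16.97 to 28.7 CPM in those libraries and at 39.9 CPM in the shallow one.

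**Figure D3:**
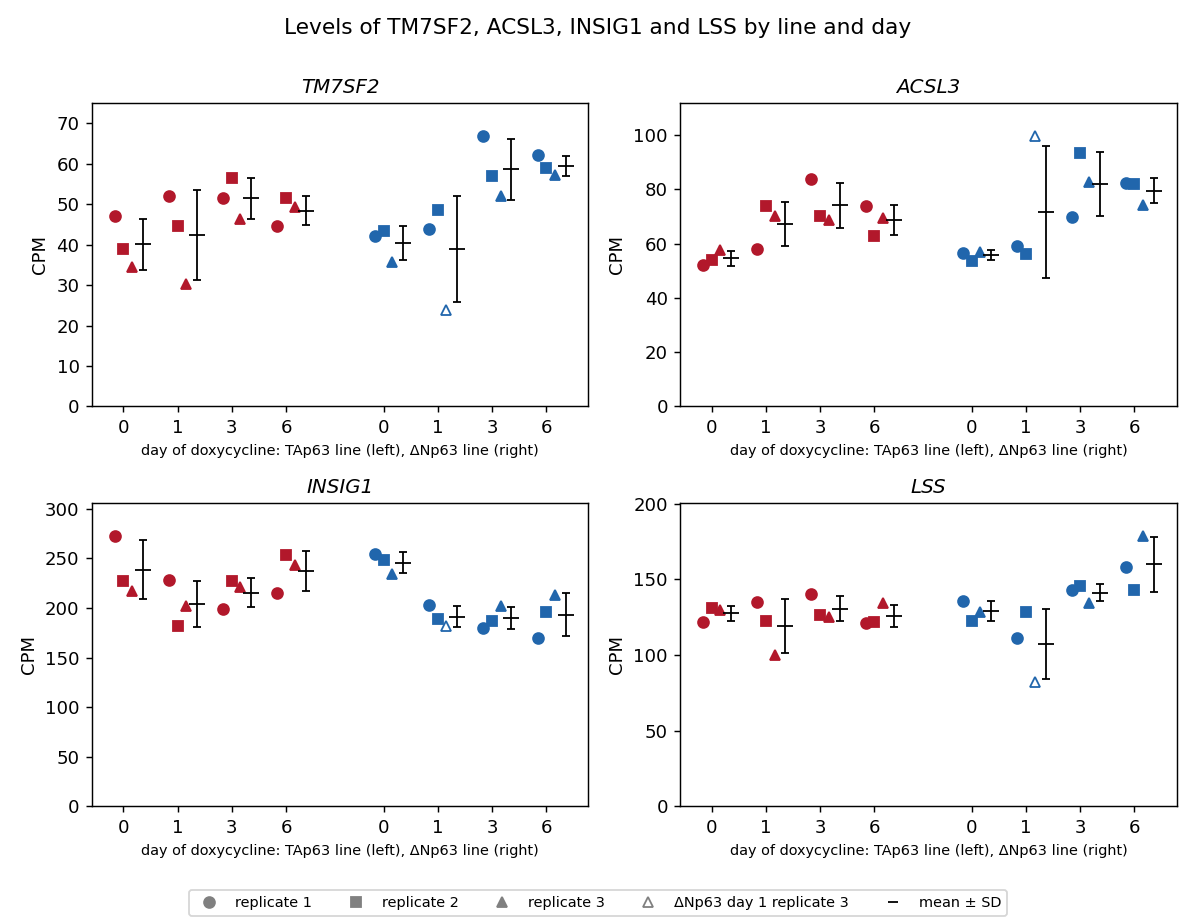
CPM of TM7SF2, ACSL3, INSIG1 and LSS in each library by day of doxycycline, TAp63 line in red on the left and ΔNp63 line in blue on the right, with symbols for replicate number, the mean ± SD beside each group and an open triangle for replicate 3 of ΔNp63 day 1. TM7SF2 and ACSL3 sit above day 0 in all 6 ΔNp63 libraries of days 3 and 6, and INSIG1 sits below day 0 in all 9 induced ΔNp63 libraries.

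On the fatty acid side, ACSL3, which activates long-chain fatty acids on lipid droplets and the endoplasmic reticulum, moved in both lines. ACSL3 (chr2:222861036-222944638, hg38, plus strand) had 52.2, 53.9 and 57.6 CPM in TAp63 libraries at day 0, 57.9, 73.7 and 70.2 at day 1, 83.7, 70.2 and 68.6 at day 3, and 73.8, 63.0 and 69.6 at day 6. In ΔNp63 libraries it had 56.5, 53.5 and 57.0 CPM at day 0, 59.3, 56.0 and 99.8 at day 1, 69.9, 93.4 and 82.7 at day 3, and 82.5, 81.9 and 74.3 at day 6. Every TAp63 library of days 1, 3 and 6 and every ΔNp63 library of days 3 and 6 was above the day 0 libraries of its line. Over all libraries the log2 change was 0.44 ± 0.16 at TAp63 day 3 (SE; adjusted p = 0.711 in edgeR) and 0.33 ± 0.16 at TAp63 day 6 (adjusted p = 1). It was 0.56 ± 0.16 at ΔNp63 day 3 (adjusted p = 0.0886) and 0.52 ± 0.16 at ΔNp63 day 6 (adjusted p = 0.138). Without the shallow library, and with no block, both ΔNp63 days were called (adjusted p = 0.00461 and 0.00845), and DESeq2 called ΔNp63 day 3 (adjusted p = 0.0247). With the block and without that library, TAp63 day 3 was called too (0.44, adjusted p = 0.0109), and TAp63 day 6 was not (0.33, adjusted p = 0.0756). The response of the lines at day 6 differed by -0.19, TAp63 minus ΔNp63, with a 95% interval of -0.67 to 0.30. Group membership accounted for 79.6% of the variance of ACSL3 over 23 libraries and replicate number for 0.124%, the highest and lowest such shares among the members.

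ELOVL6, which lengthens palmitate to stearate (chr4:110045846-110198615, hg38, minus strand), had 114, 126 and 123 CPM in TAp63 libraries at day 0, 112, 110 and 128 at day 1, 134, 115 and 105 at day 3, and 132, 101 and 104 at day 6. ELOVL6 in ΔNp63 libraries stood at 124, 104 and 117 CPM at day 0, 117, 113 and 120 at day 1, 122, 148 and 125 at day 3, and 161, 158 and 130 at day 6. The ΔNp63 libraries of day 6 were above all of day 0, and the TAp63 groups overlapped. Its log2 change at ΔNp63 day 6 was 0.38 ± 0.13 (SE; adjusted p = 0.187 in edgeR), called with the block and without the shallow library (0.38, adjusted p = 0.0112). At TAp63 day 6 it was -0.11 ± 0.13 (adjusted p = 1). The difference of the responses, -0.49 with a 95% interval of -0.86 to -0.11 and TAp63 minus ΔNp63, did not pass adjustment (adjusted p = 1 in edgeR; adjusted p = 0.0748 with the block and without the shallow library).

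The core enzymes of fatty acid synthesis did not follow ACSL3 and ELOVL6. ACLY, which makes cytosolic acetyl-CoA, and FASN, the synthase, were called lower at ΔNp63 day 3 with the block and without the shallow library, at -0.25 (adjusted p = 0.0104) and -0.34 (adjusted p = 0.00824). Over all libraries the adjusted p was 0.497 for ACLY and 0.519 for FASN, and at ΔNp63 day 6 their blocked log2 changes were -0.01 and -0.04. SCD, the stearoyl-CoA desaturase, and ACACA, the carboxylase, were not called against day 0; SCD was lower at TAp63 day 1 at an unadjusted p of 0.0308 (log2 change -0.29, adjusted p = 1), and all 3 libraries of that day were below day 0. FADS1, a fatty acid desaturase, was at 26.04 to 41.9 CPM in 23 libraries and at 310 CPM in the shallow one. Its log2 change at ΔNp63 day 1 was 1.68 (adjusted p = 0.152 in edgeR) with that library and 0.07 in the blocked fit without it (adjusted p = 0.85). FADS1 and FADS2 overlap in the annotation, and their counts are uncertain.

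The groups of 3 libraries can also be compared by whether their CPM overlapped. At ΔNp63 day 6 against day 0, 6 members were above day 0 (20%: ELOVL6, TM7SF2, LSS, PMVK, ACSL3 and STARD4), where 10% of all genes tested were, and 1 was below (3.33%, INSIG1), where 7.68% were. At ΔNp63 day 3, 2 were above (6.67%; 13.1% of all genes) and 4 below (13.3%; 10.4% of all genes). At ΔNp63 day 1, with the shallow library among the 3, 0 were above (3.96% of all genes) and 8 below (26.7%; 4.99% of all genes). At TAp63 day 1, 1 was above (3.33%; 3.24% of all genes) and 4 below (13.3%; 2.97% of all genes). ACSL3 was the member above day 0 at each TAp63 day. At TAp63 day 3, 1 was above (3.33%; 7.1% of all genes) and 7 below (23.3%; 6.18% of all genes), and at TAp63 day 6, 1 was above (3.33%; 6.85% of all genes) and 5 below (16.7%; 4.66% of all genes). HMGCS1, SREBF2, STARD4, ACAT2 and SC5D were the 5 below at TAp63 day 6. Members are not independent of each other, and no test was attached to these counts.

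Set against day 1 in place of day 0, ΔNp63 day 6 had 9 members above with no overlap (30%, against 8.45% of all genes) and 0 below (5.42% of all genes). The day 1 group holds the shallow library in these counts. In the blocked fit without the shallow library, edgeR called 6 members higher (20%; 8.51% of all genes called in either direction): LSS, TM7SF2, NSDHL, DHCR7, ELOVL6 and ACSL3. Over all libraries, 9 members were higher (7.08% of all genes) and 1 lower (10.9%) at an unadjusted p under 0.05 in that comparison, and DESeq2 called 2, both higher (7.97% of all genes in either direction). At TAp63 day 6 against day 1, edgeR called 0 members (0.3% of all genes), with 1 higher (3.04%) and 1 lower (1.55%) at an unadjusted p under 0.05, and DESeq2 called 0 (0.607%). The groups did not overlap for 1 member above, SCD (6.02% of all genes), and 2 below, HMGCS1 and SC5D (3.71%). For the difference between the lines' responses, TAp63 minus ΔNp63, edgeR called 0 members at day 3 (0.0448% of all genes) and 0 at day 6 (0.0831%), and DESeq2 called 0 at each (0.102% and 0.192%). At an unadjusted p under 0.05, 0 members were higher (0.607% of all genes) and 0 lower (1.62%) at day 3, and 0 higher (1.27%) and 3 lower (1.44%) at day 6. The TAp63 and ΔNp63 lines at day 0 differed for 0 members in edgeR (0.0128% of all genes) and in DESeq2 (0.0448%), with 0 higher (0.448%) and 0 lower (0.499%) at an unadjusted p under 0.05.

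Replicate number, more than group, ordered some members. FDPS, the farnesyl pyrophosphate synthase, was lowest in replicate 1 in 8 of 8 groups, and replicate number held 74.6% of its variance over 23 libraries against 7.47% for group. In TAp63 libraries FDPS had 67.3, 92.4 and 99.4 CPM in replicates 1, 2 and 3 of day 6, against 65.9, 106 and 102 CPM in those of day 0. SREBF1, the fatty acid regulator, was highest in replicate 1 and lowest in replicate 3 in 8 of 8 groups, with 71.2% of its variance by replicate number and 15.6% by group. ΔNp63 libraries had 359, 312 and 302 CPM of SREBF1 in replicates 1, 2 and 3 of day 6, against 359, 291 and 242 CPM in those of day 0. NSDHL was highest in replicate 1 in 8 of 8 groups. Across the 30 members the median share was 43% by group and 29.9% by replicate number, beside 30.4% and 30.5% over all genes tested. Replicate number held more than group for 13 members (43.3%), beside 48.3% of all genes tested. Group has 8 levels, which include the difference between the lines, and replicate number has 3. With more levels, group takes a larger share even where nothing differs, and the shares were not adjusted for this. FDPS, SREBF1 and NSDHL were picked after their values were seen.

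**Figure D4:**
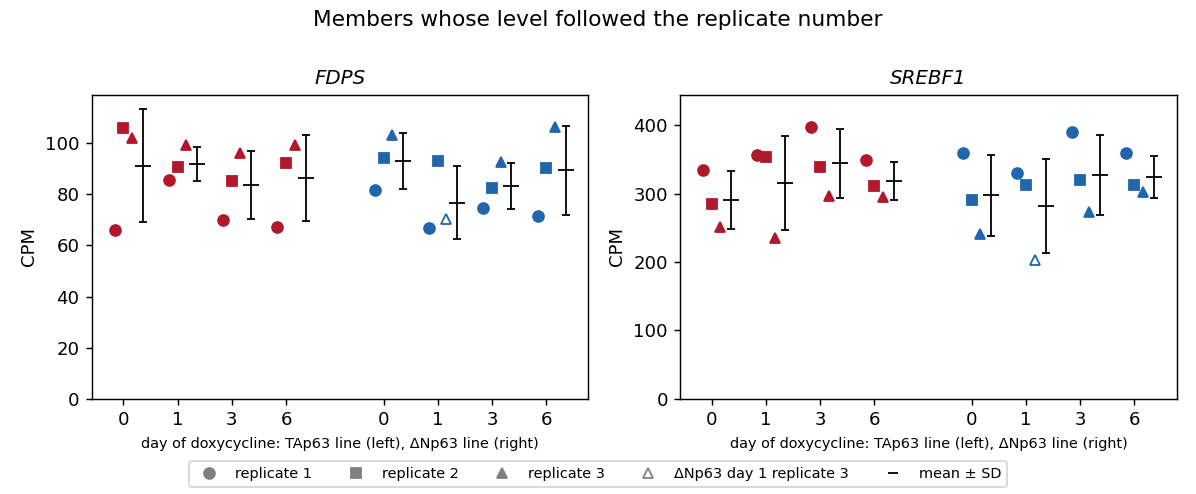
CPM of FDPS and SREBF1 in each library by day of doxycycline, TAp63 line in red on the left and ΔNp63 line in blue on the right, with symbols for replicate number and the mean ± SD beside each group. Circles, for replicate 1, are lowest for FDPS and highest for SREBF1 in 8 of 8 groups.

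Neighbouring genes of the pathway were read from 3 further lists, of liver X receptor genes, other lipid synthesis and fatty acid oxidation. Of 6 liver X receptor genes and targets, 1 rose at ΔNp63 day 3, when 2.2% of all genes were called, and at ΔNp63 day 6 (2.03%): ABCA1, the cholesterol exporter. ABCA1 had 7.70, 8.27 and 9.45 CPM in TAp63 libraries at day 0, 9.35, 7.95 and 8.53 at day 1, 9.41, 8.71 and 11.2 at day 3, and 10.4, 7.82 and 9.45 at day 6. Its level in ΔNp63 libraries was 11.2, 8.74 and 13.2 CPM at day 0, 16.6, 13.9 and 5.99 at day 1, 21.8, 26.2 and 26.2 at day 3, and 27.5, 25.96 and 29.7 at day 6. All 6 ΔNp63 libraries of days 3 and 6 were above all TAp63 libraries and all of ΔNp63 day 0. The log2 change of ABCA1 was 1.16 ± 0.20 at ΔNp63 day 3 (SE; adjusted p = 0.00224 in edgeR) and 1.33 ± 0.21 at ΔNp63 day 6 (adjusted p = 0.000582), against 0.19 ± 0.21 and 0.11 ± 0.21 at TAp63 days 3 and 6 (adjusted p = 1 each). The difference at day 6, TAp63 minus ΔNp63, was -1.22 ± 0.30 (SE; adjusted p = 0.212 in edgeR), and was called with the block and without the shallow library (-1.25, adjusted p = 7.74e-05). ABCG1, a partner exporter, was called in that blocked fit at TAp63 day 3 (0.37, adjusted p = 0.0071), TAp63 day 6 (0.42, adjusted p = 0.00248) and ΔNp63 day 3 (0.35, adjusted p = 0.00297). The same fit also called NR1H2, a liver X receptor, at TAp63 day 6 (0.31, adjusted p = 0.0266) and LPCAT3, a phospholipid acyltransferase, at ΔNp63 day 6 (0.36, adjusted p = 0.0309). With ABCA1, it thus called 1, 2, 2 and 2 of the 6 genes at TAp63 days 3 and 6 and ΔNp63 days 3 and 6, where 4.57%, 3.6%, 23.5% and 14.1% of all genes were called. Of 23 other lipid synthesis genes and of 10 fatty acid oxidation genes tested, 0 were called by edgeR over all libraries in each of the 6 comparisons with day 0, where 0.0959% to 2.2% of all genes were called, and DESeq2 called 0 as well. At an unadjusted p under 0.05 there were at most 2 lower and 1 higher of the 23 and at most 1 lower and 2 higher of the 10, where 0.793% to 4.54% of all genes were lower and 1.11% to 9.22% higher. The blocked fit without the shallow library called 1 of the 23 at TAp63 day 3 and 0 at TAp63 day 6, 7 at ΔNp63 day 3 (2 higher and 5 lower) and 3 at ΔNp63 day 6 (1 higher and 2 lower). Of the 10 oxidation genes it called 0 at TAp63 days 3 and 6, 1 at ΔNp63 day 3 (lower) and 2 at ΔNp63 day 6 (1 higher and 1 lower). That fit called 4.57% and 3.6% of all genes at TAp63 days 3 and 6, and 23.5% and 14.1% at ΔNp63 days 3 and 6. The oxidation gene called lower on both ΔNp63 days was CPT1A, the gatekeeper of mitochondrial fatty acid import. Its log2 changes in that blocked edgeR fit were -0.41 at ΔNp63 day 3 (adjusted p = 0.000208) and -0.39 at ΔNp63 day 6 (adjusted p = 0.000544). Over all libraries, the lowest adjusted p of the 10 oxidation genes in edgeR was 0.263 at ΔNp63 day 3 and 0.428 at ΔNp63 day 6.

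**Figure D5:**
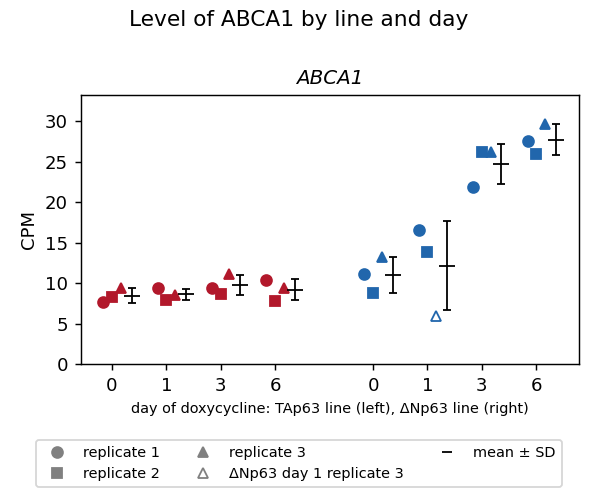
CPM of ABCA1 in each library by day of doxycycline, TAp63 line in red on the left and ΔNp63 line in blue on the right, with symbols for replicate number, the mean ± SD beside each group and an open triangle for replicate 3 of ΔNp63 day 1. ABCA1 at days 3 and 6 of the ΔNp63 line lies above all day 0 libraries and all TAp63 libraries.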

How the data were processed

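The deposited values are raw counts per gene, which the authors did not normalize. Total RNA was sequenced as paired reads; the submitters' processing notes name HISAT2 2.1.0, hg38 and featureCounts 1.6.1, while the file header names featureCounts 2.0.0. Per the file headers, fragments were assigned to whole transcript spans with introns and regardless of strand, so the 13 members with an overlapping gene have uncertain counts, and levels are not compared between genes.

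One edgeR 4.0.16 model (R 4.3.3, filterByExpr, TMM, quasi-likelihood) took all 24 libraries, 1 mean per group, with 16 residual degrees of freedom. The model was tested on simulated data. Those data held no replicate-number effect and no library with a deviating profile, so that test does not cover these features of the real libraries. CPM used TMM-scaled totals. Calls required a Benjamini-Hochberg adjusted p under 0.05 over all genes tested, in each of 11 comparisons; SE and 95% intervals are Wald values. Replicate pairs differed by more than sampling noise (lowest chi-square per degree of freedom 5.05). The titles number the replicates; deviations from group means correlated at 0.16 to 0.689 in 63 same-numbered pairs without ΔNp63 day 1. Members called in any comparison, and the 3 largest changes at day 6 in each line, were named with all values. The members and lists were chosen with earlier results of these data known. Alternatives were DESeq2 1.42.0, its size factors, no filter, a replicate block, the compared groups alone, and libraries left out. Some genes of the pathway and some markers are not reported here.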

Additional observations from a re-analysis of the deposited data

How the results depend on the processing

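No called value changed direction. Of 66 recomputed counts of called members, 51 were within 1.5 times the reported count and 15 were not; this leaves aside the omission of single compared libraries, as do the 132 medians, all of which moved by less than the spread between replicates. At ΔNp63 day 3 against day 0, where 0 members were called (2.2% of all genes), DESeq2 called 2 (3.66%) and the replicate block 3 (6.89%). The compared groups alone gave 1, leaving out replicate 3 of ΔNp63 day 1 gave 3, and the block without that library 8 (23.5%). At ΔNp63 day 6 against day 0, also 0 (2.03%), those settings gave in turn 1 (3.11%), 1 (4.56%), 2, 2 and 6 (14.1%). At ΔNp63 day 6 against day 1, where 1 was called (2.59%), they gave 2 (7.97%), 3 (6.5%), 0, 0 and 6 (8.51%). No filter on low counts gave 0 there. At TAp63 days 3 and 6 the block without that library gave 2 and 1 in place of 0 (4.57% and 3.6% of all genes). Where no share is printed, that of all genes was not computed. The replicate block over all libraries changed no other count of called members. In the 21 same-numbered pairs with ΔNp63 day 1, whose group mean holds the shallow library, the deviations correlated at -0.0581 to 0.0912 for replicate 1, 0.187 to 0.342 for replicate 2 and -0.286 to -0.0659 for replicate 3. The cause of these shifts was not tested.

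Leaving out each library in turn gave 0 to 2 called members at ΔNp63 day 1, 0 to 3 at ΔNp63 day 3 and 0 to 2 at ΔNp63 day 6 against day 0, and 0 to 4 at ΔNp63 day 6 against day 1. The shares of all genes called were not computed for these fits. The sterol median then ran from -0.165 to -0.097 at TAp63 day 3, -0.135 to -0.042 at TAp63 day 6, -0.338 to -0.125 at ΔNp63 day 1, -0.09 to 0.015 at ΔNp63 day 3 and -0.053 to 0.117 at ΔNp63 day 6. The fatty acid median ran from -0.059 to 0.004 at TAp63 day 1, -0.082 to 0.036 at TAp63 day 3, -0.052 to 0.056 at TAp63 day 6, -0.13 to -0.025 at ΔNp63 day 1, -0.169 to -0.048 at ΔNp63 day 3 and -0.051 to 0.112 at ΔNp63 day 6. Against day 1, the sterol median ran from -0.054 to 0.064 at TAp63 day 6, and the fatty acid median from -0.024 to 0.109 at TAp63 day 6 and 0.055 to 0.203 at ΔNp63 day 6. For the TAp63 minus ΔNp63 response at day 6 the sterol median ran from -0.209 to -0.056 and the fatty acid median from -0.118 to -0.003, and for TAp63 against ΔNp63 at day 0 from -0.004 to 0.034 and -0.115 to -0.017.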
